A study of Homo sapiens with 6 samples.

Results

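PECAM1 and MPZL1 are adhesion receptors of the immunoglobulin superfamily, and their transcripts lay on opposite sides of the control level in Kasumi-1 cells incubated with I13. They were chosen by these measured values, so their difference between I13 and control is described without a test. Beside them stand PTPN11 and PTPN6, the genes of the tyrosine phosphatases SHP2 and SHP1, and SIRPA, LAIR1 and CEACAM1, the genes of further receptors with inhibitory motifs, which were added for what they do. Earlier results of these data were known when these further genes were added. Together with PECAM1 and MPZL1 they are 7 genes of the 32364 in the deposited table. Of the 7, 6 passed the minimum mean of 0.1 FPKM that 18726 genes passed. FPKM is the number of fragments on a gene per kilobase of exon and per unit of library depth. Kasumi-1 is a human acute myeloid leukemia line with the t(8;21) translocation, which fuses RUNX1 to RUNX1T1. Messenger RNA was sequenced from 3 libraries of control cells, which the study's methods describe as given the matching amount of the solvent DMSO, and from 3 libraries of cells incubated with 0.5 µM I13, a histone deacetylase inhibitor. Both groups were collected after 48 h. All values are from 1 cell line at 1 dose and 1 time. The study describes its sequencing figures as standing for independent experiments, while no label ties a library to its own culture, so p-values are read as the spread between these libraries, part of which may be technical.

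The receptors of this group carry short tyrosine motifs in their cytoplasmic tails. A Src family kinase phosphorylates the tyrosine, and the tandem SH2 domains of SHP1 or SHP2 then dock on the paired motifs, which opens the phosphatase. SHP1 mostly dampens signaling in blood cells, while SHP2 is also needed for signaling from growth factor receptors to Ras. PECAM1 (CD31) binds to itself between neighbouring cells and is found on endothelial cells, platelets and leukocytes, and MPZL1 (PZR) is a widely expressed binding partner and substrate of SHP2.

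The docking sites are shown because they are what the receptors share and where SHP1 or SHP2 docks. Each is the coding sequence of 6 codons from the principal transcript of GENCODE release 29 (build GRCh38), with the codon of the motif tyrosine in capitals. An inhibitory motif (ITIM) was searched for as isoleucine, leucine, valine or serine, any residue, tyrosine, any 2 residues, then isoleucine, leucine or valine. A switch motif (ITSM) was searched for as threonine, any residue, tyrosine, any 2 residues, then isoleucine or valine. Both were searched only after the most hydrophobic stretch of 19 residues, with the start of the protein left out. PECAM1 had 1 ITIM and 1 ITSM in the 118 codons that follow its hydrophobic stretch, and they lie in separate exons, 13 and 14 of 16, on the minus strand of chromosome 17.
PECAM1 ITIM, codon 690, chr17:64348288-64348305: gtgcagTACacggaagtt
PECAM1 ITSM, codon 713, chr17:64341650-64341667: acagtgTACagtgaagtc
MPZL1 had 2 ITIMs in 86 codons after its stretch, both in exon 6 of 6 on the plus strand of chromosome 1.
MPZL1 ITIM, codon 241, chr1:167787826-167787843: gtcataTATgcacagtta
MPZL1 ITIM, codon 263, chr1:167787892-167787909: gtggtgTATgcggatatc

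SIRPA had 4 motifs, all in exon 9 of 9 on the plus strand of chromosome 20, and LAIR1 and CEACAM1 had 2 each in the last exon, on the minus strand of chromosome 19. Of the 5 receptors, PECAM1 alone had its motifs in more than 1 exon.
SIRPA ITIM, codon 429, chr20:1937332-1937349: atcacaTATgcagacctg
SIRPA ITSM, codon 453, chr20:1937404-1937421: acggagTATgccagcatt
SIRPA ITIM, codon 470, chr20:1937455-1937472: ctcaccTATgctgacctg
SIRPA ITIM, codon 496, chr20:1937533-1937550: tcagagTACgccagcgtc
LAIR1 ITIM, codon 251, chr19:54355370-54355387: gtgacgTATgctcagctg
LAIR1 ITIM, codon 281, chr19:54355280-54355297: atcacgTATgcagccgtt
CEACAM1 ITIM, codon 493, chr19:42509202-42509219: gttactTATtctaccctg
CEACAM1 ITIM, codon 520, chr19:42509121-42509138: ataattTATtcagaagta
The phosphatases are close relatives. Their translated sequences, 593 codons for PTPN11 and 597 for PTPN6, had the same residue at 331 of 575 aligned positions (57.6%). The signature of the catalytic site, searched for as histidine, cysteine, any 5 residues, then arginine, is shown for both with the codon of the catalytic cysteine in capitals. It is split by an intron between exons 11 and 12 of 16 in both genes, and 19 of its 24 bases are the same.
PTPN11 signature, codon 459, chr12:112486622-112488458, plus strand: cacTGCagtgctggaattggccgg
PTPN6 signature, codon 455, chr12:6958066-6959942, plus strand: cacTGCagcgccggcatcggccgc

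The depth recovered from the FPKM values ran from 16566741 to 17221346 fragments in control and from 15281052 to 16682549 fragments with I13. Control replicate 3 and I13 replicate 2 stood apart from the other 4 libraries on the first principal component, which held 43.3% of the variance over 4133 genes with a mean of at least 10 FPKM. Differences are therefore also given for the 4 other libraries and for this pair alone. Expression was compared on log2(FPKM + 0.1) with limma, two-sided, with Benjamini-Hochberg adjustment over all 18726 genes, a scale on which differences of weakly expressed genes come out smaller than they are. With an adjusted p under 0.05 and a log2 difference of 0.58 or more in either direction, limma called 0 genes (0%). At an unadjusted p under 0.05, 963 genes passed, and 445 of these (2.38% of all tested) also passed the fold. Limma's voom on recovered fragments, with 13853 genes tested, called 7 genes at the adjusted p. Over all tested genes the log2 difference had a median of 0.006.

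PECAM1 (ENSG00000261371) is a minus strand gene of chromosome 17, from base 64319415 to base 64413776. Its expression was 2.45, 2.49 and 2.44 FPKM in control replicates 1, 2 and 3. It was 1.30, 1.82 and 1.52 FPKM in I13 replicates 1, 2 and 3. Every I13 library lay below every control library, with I13 replicate 1 the lowest and I13 replicate 2 the nearest to control. The mean was 2.46 ± 0.0266 FPKM (SD, n = 3) in control and 1.55 ± 0.261 FPKM (SD, n = 3) with I13, a ratio of 0.630. The log2 difference, I13 minus control, was -0.65 (standard error 0.14). In the 4 other libraries it was -0.77, and the pair that stood apart gave -0.40.

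Between 161 and 331 fragments per library stood behind the PECAM1 values. The control libraries differed among themselves less than counting alone would give, with a coefficient of variation of 1.08% against a counting error of 5.56%. Among the I13 libraries the coefficient of variation was 16.9% against a counting error of 7.21%, so the spread of PECAM1 lay almost wholly on the I13 side. Among the genes of the deposited table, only a small RNA gene of the RF00019 family overlaps PECAM1. It lies on the same strand and was at 0 in all 6 libraries.

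MPZL1 (ENSG00000197965) lies on the plus strand of chromosome 1 from 167721192 to 167791919. Its expression was 2.19, 2.51 and 2.78 FPKM in control replicates 1, 2 and 3. It was 4.25, 3.60 and 3.64 FPKM in I13 replicates 1, 2 and 3. Every I13 library lay above every control library, and I13 replicate 1, the lowest library for PECAM1, was the highest for MPZL1. The mean was 2.49 ± 0.295 FPKM (SD, n = 3) in control and 3.83 ± 0.364 FPKM (SD, n = 3) with I13, a ratio of 1.54. The log2 difference was 0.60 (standard error 0.12). It was 0.72 in the 4 other libraries and 0.36 within the pair. Between 266 and 478 fragments per library stood behind these values, and the coefficient of variation was 11.9% in control and 9.52% with I13, against counting errors of 5.79% and 4.81%. Of all genes tested, 4.88% had every I13 library above every control library and 4.64% had every I13 library below, shares that are read here only as the background of a pair chosen on this contrast.

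**Figure D1:**
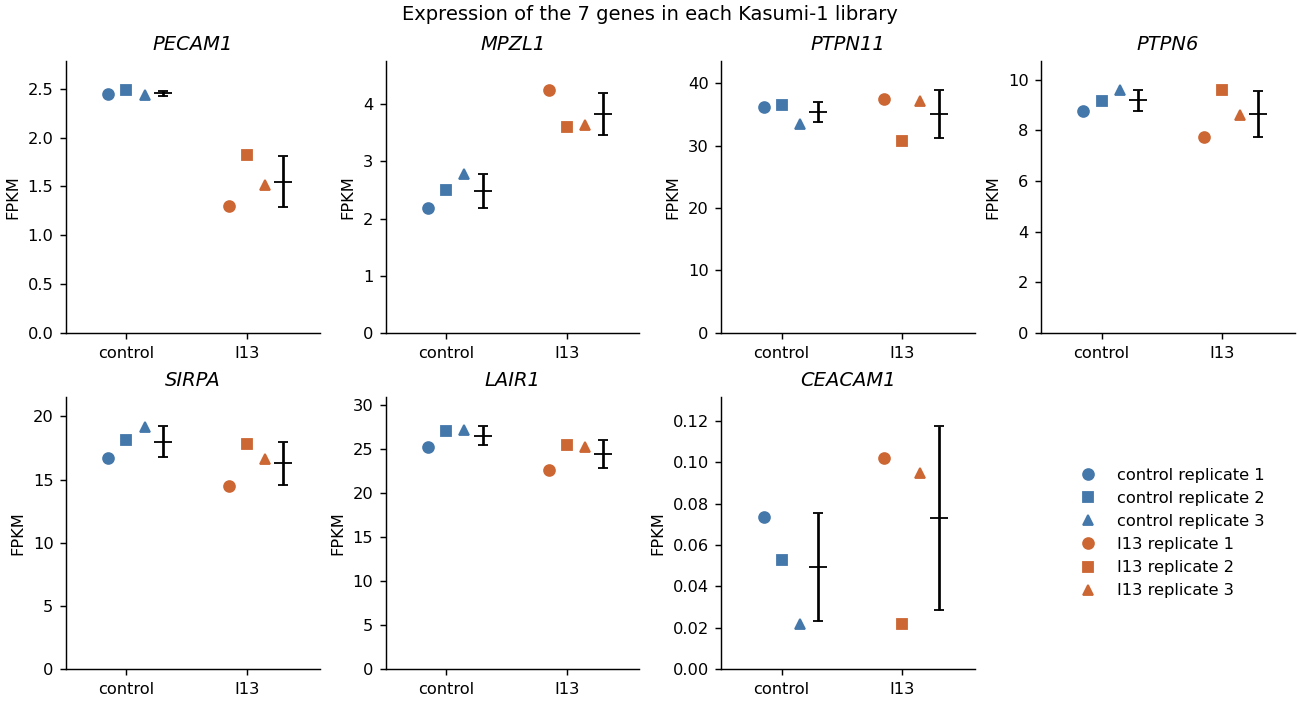
FPKM of each of the 7 genes (linear axes from 0) in the 3 control and 3 I13 libraries. Points are libraries, with one marker shape per replicate number, and the bar beside them is the mean ± SD of the 3 libraries. The I13 points lie wholly below the control points for PECAM1 and wholly above them for MPZL1, and the groups overlap for the other 5 genes.

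The same 2 transcripts can be read as a ratio within each library, which is free of library depth. FPKM is per kilobase of annotated exon, so the level of this ratio depends on the exon lengths used. Its difference between the groups does not depend on them. The ratio of MPZL1 to PECAM1 was 0.893, 1.01 and 1.14 in control replicates 1, 2 and 3. It was 3.26, 1.97 and 2.40 in I13 replicates 1, 2 and 3. Both transcripts were thus near parity in FPKM in the control libraries, and MPZL1 exceeded PECAM1 in FPKM in all I13 libraries. The mean ratio was 1.01 ± 0.124 (SD, n = 3) in control and 2.54 ± 0.656 (SD, n = 3) with I13, and the log2 ratio differed by 1.30. Within the pair the log2 ratio differed by 0.79. The sum of both transcripts differed less, at 4.94 ± 0.292 FPKM (SD, n = 3) in control and 5.38 ± 0.201 FPKM (SD, n = 3) with I13. Over the 6 libraries Pearson's r between both genes was -0.94, a description of points that share their group and their library.

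**Figure D2:**
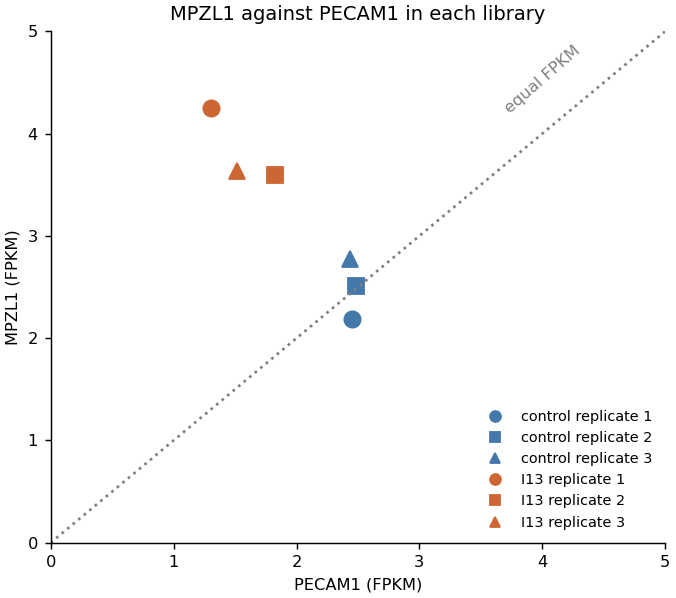
MPZL1 against PECAM1, both in FPKM on linear axes, with 1 point per library and the dotted line marking equal FPKM. The control libraries lie close to the line, with ratios from 0.893 to 1.14, and the I13 libraries lie above it, with ratios from 1.97 to 3.26.

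Of the receptors set beside them, SIRPA (ENSG00000198053) is an inhibitory receptor of myeloid cells whose ligand is CD47, and it lies on the plus strand of chromosome 20 from 1894167 to 1940592. Its expression was 16.7, 18.1 and 19.1 FPKM in control replicates 1, 2 and 3. It was 14.4, 17.8 and 16.6 FPKM in I13 replicates 1, 2 and 3. The groups overlapped, and I13 replicate 1 was the lowest library. The log2 difference was -0.15 (standard error 0.090, 95% interval from -0.36 to 0.07). By limma the unadjusted p was 0.151 and the adjusted p 0.983. Without I13 replicate 2 the difference was -0.21 (limma's unadjusted p = 0.0551), and without I13 replicate 1 it was -0.06.

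LAIR1 (ENSG00000167613), a receptor for collagens, is a minus strand gene of chromosome 19, from base 54351384 to base 54370558. Its expression was 25.3, 27.0 and 27.2 FPKM in control replicates 1, 2 and 3. It was 22.6, 25.4 and 25.2 FPKM in I13 replicates 1, 2 and 3. Control replicate 1 lay below I13 replicate 2, so the groups overlapped. The log2 difference was -0.12 (standard error 0.063, 95% interval from -0.27 to 0.03), with an unadjusted p of 0.106 and an adjusted p of 0.976 by limma. Without I13 replicate 1 the difference of LAIR1 was -0.06.

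CEACAM1 (ENSG00000079385), an adhesion receptor of epithelial and blood cells, is a minus strand gene of chromosome 19, from base 42507304 to base 42561234. It was close to absent, at 0.0736, 0.0527 and 0.0219 FPKM in control replicates 1, 2 and 3 and at 0.102, 0.0217 and 0.0948 FPKM in I13 replicates 1, 2 and 3. These values are 7, 5 and 2 fragments in control and 9, 2 and 8 fragments with I13. LIPE-AS1, an antisense gene on the opposite strand with between 0.0448 and 0.115 FPKM, overlaps CEACAM1. Whether the counting used strand is not given, and without strand fragments from the overlap cannot be told apart. CEACAM1 was under the minimum mean FPKM and was not tested. At equal depth the ratio of I13 to control was 1.44, with an exact 95% interval from 0.686 to 3.11 that covers counting error only. The interval is wide and includes equal levels, so no difference of CEACAM1 was detected at this depth.

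PTPN11 (ENSG00000179295), the gene of SHP2, lies on the plus strand of chromosome 12 from 112418351 to 112509913. Its expression was 36.3, 36.5 and 33.5 FPKM in control replicates 1, 2 and 3. It was 37.4, 30.7 and 37.2 FPKM in I13 replicates 1, 2 and 3. The lowest library of each group was the one that stood apart on the first principal component, and the groups overlapped. The log2 difference was -0.02 (standard error 0.085, 95% interval from -0.22 to 0.18), with an unadjusted p of 0.842 and an adjusted p of 1.00 by limma. The sign of the difference turned in the 4 other libraries, where it was 0.04, and it was -0.13 within the pair. RPL6, a ribosomal protein gene on the opposite strand with between 368 and 421 FPKM, overlaps PTPN11. The library kit marks strand, but whether the counting used it is not given in the sources used here, and without strand fragments from the overlap cannot be told apart.

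PTPN6 (ENSG00000111679), the gene of SHP1, lies on the plus strand of chromosome 12 from 6946468 to 6961316. Its expression was 8.78, 9.17 and 9.58 FPKM in control replicates 1, 2 and 3. It was 7.75, 9.57 and 8.58 FPKM in I13 replicates 1, 2 and 3. The highest library of each group was the one that stood apart, in contrast to PTPN11. The log2 difference was -0.09 (standard error 0.088, 95% interval from -0.30 to 0.12), with an unadjusted p of 0.338 and an adjusted p of 0.992 by limma. It was -0.14 in the 4 other libraries, -0.001 within the pair and -0.02 without I13 replicate 1.

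None of the 4 tested genes that were not chosen by their values (PTPN11, PTPN6, SIRPA and LAIR1) passed an unadjusted p under 0.05 by limma or by voom, where by limma 2.55% of all genes passed it as higher and 2.59% as lower. These 4 genes were added with earlier results of these data known, so the shares over all genes are background only. The groups separated in 0 of the 4, where 4.88% of all genes separated as higher and 4.64% as lower. All 4 differences were below 0 over the 6 libraries. SIRPA, LAIR1 and PTPN6 varied together from library to library, so these signs are not separate observations. For these 4 genes the 95% intervals, which reflect only the spread between these libraries, stayed within a log2 difference of 0.58 in either direction. They do not show that the genes were equal in both groups.

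**Figure D3:**
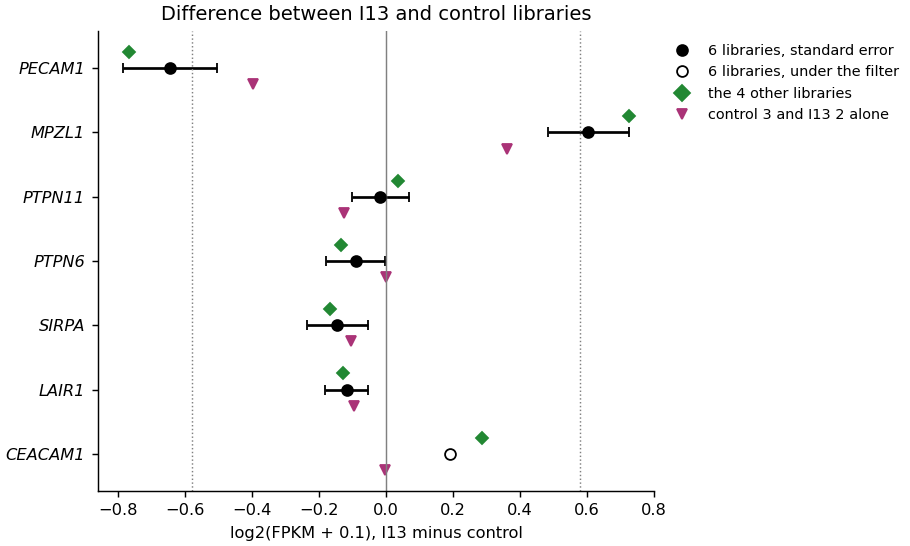
Difference in log2(FPKM + 0.1), I13 minus control, for each of the 7 genes. Circles are the means over 6 libraries with the standard error from limma (open for CEACAM1, which was under the filter and has none), diamonds the 4 libraries other than control replicate 3 and I13 replicate 2, and triangles that pair alone. Dotted lines mark a difference of 0.58 to either side of 0. PECAM1 and MPZL1 keep their side of 0 in every set, with values from -0.77 to -0.40 and from 0.36 to 0.72. Their groups do not overlap, so no set of these libraries could turn the sign.

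SIRPA, LAIR1 and PTPN6 went up and down together from library to library. Over the 6 libraries Pearson's r was 0.97 between SIRPA and LAIR1, 0.96 between SIRPA and PTPN6 and 0.88 between LAIR1 and PTPN6, given as a description over 6 points that share their library. How common such an r is among all genes was not examined. Within each group, the library that stood apart on the first principal component was the highest for these 3 genes and the lowest for PTPN11. I13 replicate 1 was the lowest library and control replicate 3 the highest for SIRPA, LAIR1 and PTPN6. Their ratios stayed narrow across both groups, from 0.639 to 0.704 for SIRPA to LAIR1 and from 1.86 to 2.00 for SIRPA to PTPN6. PTPN11 went the other way from PTPN6, with an r of -0.75, so the ratio of SHP2 to SHP1 transcripts ran from 3.21 in I13 replicate 2 to 4.83 in I13 replicate 1. The mean of that ratio was 3.87 ± 0.329 (SD, n = 3) in control and 4.12 ± 0.829 (SD, n = 3) with I13, and both extremes lay in the I13 group. PECAM1 had an r of 0.83 with LAIR1, 0.78 with SIRPA and 0.71 with PTPN6, and MPZL1 had an r of -0.05 with PTPN11.

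**Figure D4:**
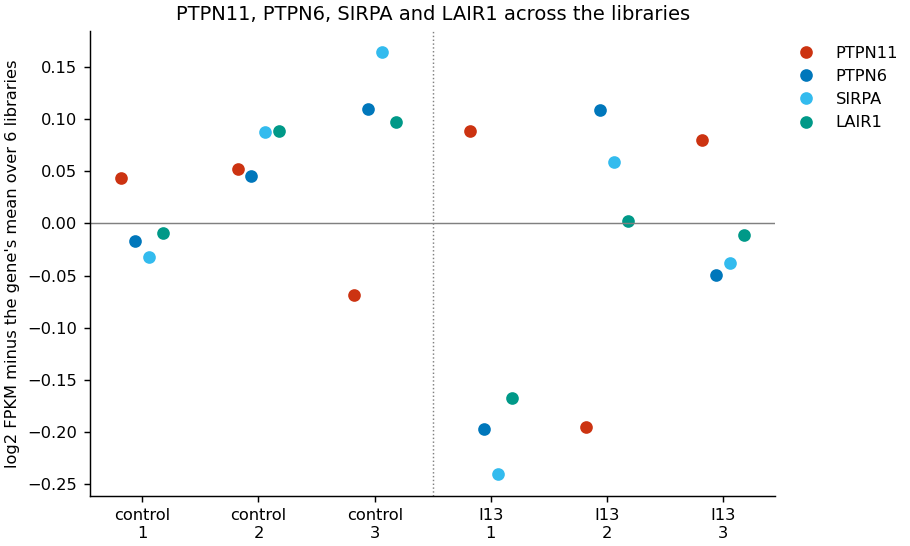
log2 FPKM of PTPN11, PTPN6, SIRPA and LAIR1 in each library, less the mean of the gene over the 6 libraries. Each point is 1 gene in 1 library and the dotted line divides the groups. PTPN6, SIRPA and LAIR1 share their lowest library, I13 replicate 1, while PTPN11 is lowest in I13 replicate 2.

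The order of the levels was the same in nearly every library. PTPN11 stood highest, followed by LAIR1, SIRPA, PTPN6, then MPZL1 and PECAM1, and CEACAM1 stood lowest. Neighbours in this order did not overlap over the 6 libraries except MPZL1 and PECAM1, where MPZL1 was the higher in 5 of 6 libraries. In rank among all genes tested, PTPN11 was at the percentile 94.2, LAIR1 at 91.5, SIRPA at 86.7 and PTPN6 at 75.8, while MPZL1 and PECAM1 were near the middle at 55.6 and 48.6. The 2 genes with opposite differences were thus among the 3 least expressed of the 7.

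Genes around the receptors and phosphatases were taken from 7 lists with 96 genes, of which 90 were in the table and 58 were tested. By limma 1 of the 58 had an unadjusted p under 0.05 as higher and 0 as lower, against 2.55% and 2.59% of all genes tested, and 0 passed the adjusted p. All 58 had an absolute log2 fold change under 0.58, with a range from -0.43 to 0.23 and a median of -0.02. The groups separated in 3 as higher and in 2 as lower, which is near the shares over all genes of 4.88% and 4.64%. CD33 apart, every gene of these 7 lists that is named in the text had an unadjusted p above 0.05 by limma over the 6 libraries.

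The first list holds 24 inhibitory receptors of blood cells, with 13 tested and a median log2 difference of -0.002. CD33, a sialic acid receptor with inhibitory motifs, was the gene that passed the unadjusted p. It had 11.9, 11.8 and 10.8 FPKM in control replicates 1, 2 and 3 and 13.7, 13.1 and 12.7 FPKM in I13 replicates 1, 2 and 3. Its groups did not overlap, and the log2 difference was 0.20 (standard error 0.063, unadjusted p = 0.0166 and adjusted p = 0.890 by limma). Without I13 replicate 1 the log2 difference of CD33 was 0.17 (limma's unadjusted p = 0.0625). VSIG4, a complement receptor of macrophages and the most expressed gene of the list, had between 26.1 and 28.9 FPKM and a log2 difference of 0.05. The lowest log2 difference of all lists, -0.43, was that of CD300A, named here after its value was seen, with 6.53 FPKM in control replicate 1 and between 2.81 and 3.95 FPKM in the other libraries. Its unadjusted p was 0.107 by limma and 0.0244 by voom. Without control replicate 1 the difference was -0.16, and without control replicate 3 it was -0.61 (limma's unadjusted p = 0.0382 and adjusted p = 0.764).

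Paralogs and soluble relatives of the receptors made up 19 genes, with 9 tested and a median of -0.04. SIRPB2, a relative of SIRPA, had 3.70, 3.45 and 3.71 FPKM in control and 2.87, 2.71 and 3.48 FPKM with I13. Its log2 difference was -0.26, with an unadjusted p of 0.0557 by limma and 0.0292 by voom. Without I13 replicate 3 the difference was -0.36 (limma's unadjusted p = 0.0108 and adjusted p = 0.822). With any other replicate left out, limma's unadjusted p was between 0.0748 and 0.151. CEACAM19, a relative of CEACAM1, had between 2.70 and 3.16 FPKM in control and between 3.20 and 3.89 FPKM with I13, a log2 difference of 0.23 (limma's unadjusted p = 0.0848).

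Of 8 ligands, 2 were tested. CD47, the ligand of SIRPA, had between 6.92 and 7.51 FPKM in control and between 6.45 and 8.19 FPKM with I13, a log2 difference of 0.07 (standard error 0.10). HAVCR2 (TIM-3), listed as a ligand of CEACAM1, had between 1.77 and 2.39 FPKM and a log2 difference of 0.13. Without I13 replicate 2 the difference of CD47 was 0.18 (limma's unadjusted p = 0.0437 and adjusted p = 0.755). SIRPA and its ligand were thus both transcribed in the same cell line, and over the 6 libraries neither passed the test.

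The kinases that phosphorylate the motifs and their regulators made up 11 genes, with 6 tested and a median of -0.02. LYN, the main Src family kinase of myeloid cells, had between 10.8 and 12.4 FPKM and a log2 difference of 0.02 (standard error 0.078). CSK, which keeps Src family kinases inactive, had between 31.5 and 38.5 FPKM and a difference of -0.08. PTPRC (CD45), the receptor phosphatase that reverses the action of CSK, had between 5.95 and 7.75 FPKM and a difference of 0.04. LYN stood above YES1, which had a mean of 5.48 FPKM, and FYN, which had between 1.81 and 1.99 FPKM.

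Adaptors of SHP2 and genes of Ras exchange made up 14 genes, all tested, with a median of -0.02. GRB2, the adaptor that links receptors to the exchange factor SOS1, had between 82.6 and 90.4 FPKM and a log2 difference of 0.01. NRAS had between 18.3 and 22.7 FPKM and a difference of 0.03. GAB2, a docking protein of SHP2 in blood cells named here after its value was seen, had the lowest p of the list, 0.101 by limma, with a log2 difference of -0.13. Of 15 other cytosolic tyrosine phosphatases, 11 were tested with a median of 0.006. PTPN7, a phosphatase of MAP kinases in blood cells, had between 68.7 and 71.5 FPKM, above PTPN11, and a difference of 0.006 (standard error 0.041). PTPN18 had between 21.9 and 25.1 FPKM and a difference of -0.03. Of 5 lipid phosphatases and adaptors with SH2 domains, 3 were tested, all below 0, with a median of -0.09. INPP5D (SHIP1), which can compete with SHP1 for the same receptors, had between 27.6 and 31.7 FPKM and a difference of -0.10 (standard error 0.055). Without I13 replicate 2 that of INPP5D was -0.14 (limma's unadjusted p = 0.0332 and adjusted p = 0.746). INPPL1 (SHIP2) had between 21.3 and 25.1 FPKM and a difference of -0.09.

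**Figure D5:**
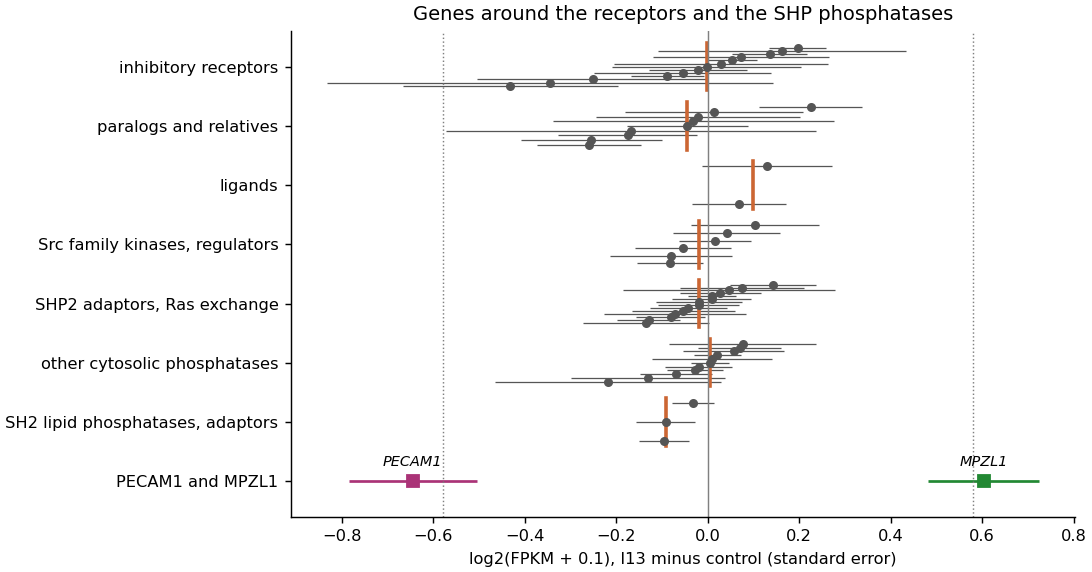
Difference in log2(FPKM + 0.1), I13 minus control, for the 58 tested genes of the 7 lists, with PECAM1 and MPZL1 in the bottom row. Points are genes with the standard error from limma, the thick bars are list medians and the dotted lines mark a difference of 0.58 to either side of 0. All listed genes lie between -0.43 and 0.23, and PECAM1 and MPZL1, which were chosen for their values, lie outside the dotted lines.

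The genes most like PECAM1 over the 6 libraries were sought by Pearson's r on log2(FPKM + 0.1) among 9677 protein-coding genes with a mean of at least 1 FPKM. They were DDAH2 (r = 0.993), PTGS1, the constitutive cyclooxygenase (r = 0.991), and BST1 (CD157), an ectoenzyme of myeloid cells (r = 0.990). DDAH2 had 18.9, 18.8 and 19.4 FPKM in control and 14.2, 16.8 and 15.2 FPKM with I13. It shared the flat control values and the order of the I13 libraries with PECAM1, on a smaller log2 difference of -0.31. PTGS1 and BST1 had log2 differences of -0.20 and -0.27. The genes most like MPZL1 were SS18L2 (r = 0.990), CD74, the invariant chain of MHC class II (r = 0.985), and CDK9, the kinase of transcription elongation (r = 0.984), with log2 differences of 0.20, 0.37 and 0.10. In all, 39 genes had an r over 0.95 with PECAM1 and 24 with MPZL1. These genes were chosen for their pattern, so their differences are a description.

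The surroundings of both genes on the chromosome were looked at after their values were known. Within 500 kb of the start site of PECAM1, 18 genes were tested, and 0 had an unadjusted p under 0.05 by limma, with a median log2 difference of 0.05. With 2.55% of all genes passing as higher and 2.59% as lower, a count of 0 among so few genes is near the background. Within the same distance of MPZL1, 9 genes were tested with a median of -0.02, and 1 had an unadjusted p under 0.05. That gene was CREG1, a secreted glycoprotein gene that starts 167 kb away, with 27.1, 26.9 and 22.4 FPKM in control and 32.5, 28.8 and 30.4 FPKM with I13. Its log2 difference was 0.27 (limma's unadjusted p = 0.0184 and adjusted p = 0.890).

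PECAM1 is also a gene of endothelial cells and platelets, so markers of these and other cells were checked. All 10 markers of myeloblasts and of the line were expressed, among them RUNX1, RUNX1T1, KIT and MPO, with summed levels between 14452 and 15554 FPKM in control and between 13066 and 14849 FPKM with I13. Of these 10, CD33 and ANPEP had an unadjusted p under 0.05 by limma, both higher, where 2.55% of all genes did. By voom MPO was also past it, as lower (unadjusted p = 0.0211), with a log2 difference of -0.12 and an unadjusted p of 0.242 by limma. Of 8 endothelial markers, CDH5, VWF, KDR, TEK and CLDN5 were at or near 0, with at most 0.105 FPKM, TIE1 had at most 0.331 FPKM, and EGFL7 and ESAM were expressed. The summed level of the endothelial markers was between 165 and 204 FPKM in control and between 166 and 194 FPKM with I13. Nearly all of this sum was EGFL7 and ESAM, so it says little of the other endothelial markers. The 3 endothelial markers tested had log2 differences between -0.01 and 0.45, 1 above 0 and 2 below. Of these, 0 had an unadjusted p under 0.05 by limma. Of 6 megakaryocyte and platelet markers, 5 were in the table and PPBP was at 0 in every library, with summed levels between 1.27 and 2.03 FPKM in control and between 1.41 and 1.92 FPKM with I13. The 3 tested had log2 differences between -0.06 and 1.00, 1 above 0 and 2 below, and 0 had an unadjusted p under 0.05 by limma. The 5 T and NK cell markers summed to between 0.947 and 1.51 FPKM in control and between 0.448 and 0.887 FPKM with I13, with CD3G at 0 in every library and CD3D lower (log2 difference -0.90, limma's unadjusted p = 0.0205). CD3D rested on few fragments, 16 in all of control and 6 with I13, and their ratio per depth, 0.399, had an exact 95% interval from 0.128 to 1.07 for counting error only. The 3 B cell markers in the table summed to between 4.44 and 5.27 FPKM in control and between 4.62 and 5.91 FPKM with I13. The 4 erythroid markers in the table summed to at most 0.201 FPKM in any library. The part of other cells in the PECAM1 and MPZL1 values was not tested.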

How the data were processed

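Kasumi-1 libraries, 3 of control and 3 of 0.5 µM I13 for 48 h, were grouped by their labels. The file the authors deposited is 1 table of FPKM for genes in rows and libraries in columns. The submitters' processing notes name Trimmomatic, HISAT2, Cufflinks, HTSeq and hg38. Their roles, the annotation and the strand setting are not given in the sources used, and the kit was TruSeq Stranded mRNA LT. GENCODE release 29 named 32244 of 32364 identifiers, and its exon lengths gave whole fragments in all 6 libraries for 25770 of 27002 genes (95.4%, tolerance 0.01). Depths from these fragments set the counting error given beside the values. FPKM was tested on log2(FPKM + 0.1) with limma 3.58.1 in R 4.3.3, with a variance trend and a minimum mean of 0.1 FPKM. Because the unit is FPKM, voom on genes with a mean of at least 10 recovered fragments was an alternative only. Both were tested on simulated data.

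Same-numbered libraries did not deviate together (r = 0.32, -0.38 and -0.30), so the fit had no block. Each of these was tried as an alternative: a pseudocount of 1 or 0.01, a minimum mean of 1 FPKM, no filter, median scaling, quantile normalization, no trend, robust variances, voom, a replicate block, a term for the library pair that stood apart, the 4 other libraries, the pair alone and each replicate left out. The members and lists were chosen with earlier results of these data known. Genes named are the 7 members; PTPRC, CD47, INPP5D, LYN and CD33; listed genes with an unadjusted p under 0.05; the 2 most expressed of each list; and the 3 genes most like PECAM1 and MPZL1. Others, such as YES1 and FYN, were chosen after their values were seen. Values of some single genes are not reported here. Coding sequences are from GENCODE transcripts, read in Python 3.11.15.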

Additional observations from a re-analysis of the deposited data

How the results depend on the processing

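PECAM1 lay below and MPZL1 above control in every alternative, which is no support, since both were chosen for these directions. Their groups did not overlap, so leaving libraries out could not turn either sign. PECAM1 ranged from -0.77 to -0.40 and MPZL1 from 0.36 to 0.72 on the log2 scale. With a pseudocount of 1 the PECAM1 difference was -0.44 and that of the MPZL1 to PECAM1 log2 ratio 0.91, against 1.30 without a pseudocount. In the pair that stood apart (control replicate 3, I13 replicate 2) these 3 differences, for PECAM1, MPZL1 and their ratio, were -0.40, 0.36 and 0.79. PTPN11, PTPN6, SIRPA and LAIR1 had an unadjusted p above 0.05 in every fit that gave a test, the smallest being 0.0551 for SIRPA without I13 replicate 2. The sign of PTPN11 turned in some, between -0.13 and 0.08.

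Counts over all genes moved more. At the unadjusted p and the fold, 220 genes were higher and 225 lower. They were 72 and 62 with a pseudocount of 1, 59 and 60 with a minimum mean of 1 FPKM, and 116 and 99 by voom. At the adjusted p the counts were 4 and 5 with no trend and 5 and 2 by voom, and between 0 and 1 in each direction with each replicate left out, where the calls came without I13 replicate 1. The cause was not tested. In the fit with the replicate block the counts were 263 and 243 at the unadjusted p and 0 and 0 at the adjusted p, and none of these 4 genes changed its call.

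With 3 libraries a group, precision is limited by the spread between libraries for genes such as PTPN11 and by counting for CEACAM1.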
